A study of Mus musculus with 36 samples.

Results

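Bst2, Zbp1, Ifitm3 and Gbp2b are 4 interferon-induced defence genes among the 988 genes of a targeted RNA panel for immune and cancer transcripts, read in 9 groups of mouse colon samples and colon tumours. They were chosen by name, across all groups and with the differences between sash and wild-type lesions already known, so their values in the lesions are given as a description with no test. Their RNA was measured as the count of 1 short amplified stretch per transcript. Levels are given as CPM (counts scaled to the library total after its adjustment by a TMM factor). These levels can be compared between samples and not between genes.

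Colon tumours came from mice with the Kit "sash" mutation (strain C57BL/6 cKitw-sh, called sash here, n = 5) and from wild-type C57BL/6 mice (n = 5). These mice were 32 weeks old and had received 6 weekly injections of 10 mg/kg azoxymethane (AOM), which causes colon cancer in rodents, the last of them 18 weeks before collection. Colon samples with preneoplastic lesions came from sash (n = 3) and wild-type mice (n = 3) aged 14 weeks, which had 3 AOM injections within 3 weeks and were killed 3 weeks later. In other wild-type mice, also 14 weeks old, cromolyn, a drug that stabilises mast cells, was given together with AOM (n = 3) or for 3 weeks after AOM (n = 3), or AOM was given alone (n = 3), so all of these groups carried AOM and none was free of the carcinogen. Tumours of MC-38, a mouse colon carcinoma line, were taken from sash (n = 5 analysed) and wild-type hosts (n = 4 analysed), which are labelled as treated with saline. The sash mutation affects regulation of Kit, the receptor on which mast cells depend, and is used as a mast cell-deficient model, although Kit also acts in other cells. Whether every sample is from its own mouse is not stated, so p-values reflect the scatter of these samples alone, some of which may be technical.

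Type I interferons are released when cells sense foreign or misplaced nucleic acid. Type I interferon and interferon-gamma each bind their own receptors and act through STAT proteins, which switch on a large set of genes from short promoter elements, the ISRE and the GAS. The products of these genes block successive steps of infection. Bst2 (tetherin) holds budding virus particles on the cell surface, and in mice it also marks plasmacytoid dendritic cells. Ifitm3 stops viruses from fusing with endosomal membranes, and it is also carried by epithelial and tumour cells. Zbp1 binds Z-form nucleic acid and can start necroptosis through Ripk3. Gbp2b is a guanylate-binding protein, a GTPase family induced above all by interferon-gamma that attacks the vacuoles of intracellular microbes. In the gut, the epithelium and the immune cells beneath it keep such genes active at rest.

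The promoters are shown because the members share their induction by interferon. RefSeq's windows on build GRCm38.p6, from 250 bases before to 50 bases after the start site, were found for 3 of the 4 genes, and Zbp1 is named only. They are written 5′ to 3′ on the strand of the gene. Capitals mark matches to the core ISRE letters GAAANNGAAA on either strand. The Bst2 window lies at chr8:71537423-71537722 (minus strand), the Ifitm3 window at chr7:141010695-141010994 (minus strand) and the Gbp2b window at chr3:142594597-142594896 (plus strand).
Bst2: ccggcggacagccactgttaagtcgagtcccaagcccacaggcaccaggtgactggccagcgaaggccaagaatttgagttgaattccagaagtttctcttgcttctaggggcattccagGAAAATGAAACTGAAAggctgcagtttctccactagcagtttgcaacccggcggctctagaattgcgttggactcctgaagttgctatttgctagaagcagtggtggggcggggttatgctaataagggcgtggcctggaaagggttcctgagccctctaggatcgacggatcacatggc
Ifitm3: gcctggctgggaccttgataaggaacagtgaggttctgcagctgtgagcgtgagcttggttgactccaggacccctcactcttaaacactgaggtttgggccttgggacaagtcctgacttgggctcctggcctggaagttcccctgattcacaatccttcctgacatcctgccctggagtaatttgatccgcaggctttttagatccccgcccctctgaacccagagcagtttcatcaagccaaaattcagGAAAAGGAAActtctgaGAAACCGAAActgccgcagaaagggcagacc
Gbp2b: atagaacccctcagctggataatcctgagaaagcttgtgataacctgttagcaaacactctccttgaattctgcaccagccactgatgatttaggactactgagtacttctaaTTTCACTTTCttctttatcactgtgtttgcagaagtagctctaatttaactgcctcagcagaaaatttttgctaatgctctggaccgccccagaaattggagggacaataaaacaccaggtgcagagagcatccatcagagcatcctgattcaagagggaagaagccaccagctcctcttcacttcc

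Bst2 had 2 overlapping ISRE matches, which began at −130 and −124 from the start site. Ifitm3 also had 2, both just after the start site, at 2 and 19. The 1 match of Gbp2b, at −137, lay on the opposite strand. The GAS letters TTCNNNGAA, which read the same on both strands, occurred once in Bst2 at −136 and once in Ifitm3 at 13, each time overlapping an ISRE match, and had 0 matches in the Gbp2b window. Of 32851 RefSeq promoter windows of this length, 3.44% held the ISRE letters, 8.30% the GAS letters and 0.454% both. These matches describe letters, and no binding was measured.

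Total counts ran from 449880 to 1264354 in the 25 AOM libraries and from 480136 to 986415 in the 9 MC-38 libraries. The only gene of the epithelium list on the panel, Epcam, stood at 9591 to 34760 CPM in the AOM libraries but at 0 to 3.32 CPM in the MC-38 tumours, so this epithelial marker was all but absent from the transplanted tumours. Cpa3, a mast cell protease, was at 3.23 to 6.64 CPM in MC-38 tumours of sash hosts, against 259 to 694 CPM in those of wild-type hosts, and at 0 CPM in all sash lesions, against 1.51 to 22.6 CPM in wild-type lesions. Among the AOM tumours, 2 wild-type libraries stood apart. Wild-type tumour 2 had the highest sum of the B and plasma cell markers (682 CPM, with a median of 36.6 CPM over the 5 wild-type tumours), and wild-type tumour 4 had the highest sum of surface colonocyte markers (50158 CPM, with a median of 23477 CPM).

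In preneoplastic lesions all 4 genes had the lower mean in sash mice, and Bst2 was the furthest apart. Bst2 stood at 976, 1117 and 1214 CPM in sash lesions 1 to 3, against 4518, 3145 and 2675 CPM in wild-type lesions 1 to 3. Ifitm3 had 1137, 1857 and 1807 CPM in sash lesions, against 4725, 2571 and 2912 CPM in wild-type lesions. Gbp2b had 12.5, 23.6 and 29.5 CPM in sash lesions, against 46.0, 56.1 and 70.6 CPM in wild-type lesions. For these 3 genes every sash lesion lay below every wild-type lesion. Zbp1 had 823, 1107 and 705 CPM in sash lesions, against 1892, 1462 and 872 CPM in wild-type lesions. Its groups overlapped, since sash lesion 2 lay above wild-type lesion 3.

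On the log2 scale the difference, sash minus wild type, was −1.67 (SE 0.25) for Bst2, −1.38 (SE 0.42) for Gbp2b, −1.12 (SE 0.30) for Ifitm3 and −0.72 (SE 0.30) for Zbp1. Groups did not overlap for 3 of the 4 genes, and for 24.3% of the 775 genes tested in the lesions. This count comes from the comparison the genes were chosen on, and nothing is read from it. Gbp2b rested on 49 counts in sash and 138 in wild-type lesions, so its level is the least precise of the 4.

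In the bulk samples, fewer cells of a type and less RNA per cell cannot be told apart. The 8 B and plasma cell markers of the panel summed to 82.5 to 265 CPM in sash lesions, against 745 to 2467 CPM in wild-type lesions, and these groups did not overlap. The 4 plasmacytoid dendritic cell markers on the panel leave out Siglech and include the widely expressed Irf8. They summed to 675 to 786 CPM in sash and 686 to 858 CPM in wild-type lesions. Irf8 made up most of this sum, at 596 to 659 CPM in sash and 504 to 561 CPM in wild-type lesions. Of the 3 tested markers of this list, 2 lay below 0 (median log2 difference −0.47). Of the 12 tested T cell markers, 11 lay below 0 (median log2 difference −0.72), and the list summed to 518 to 729 CPM in sash and 698 to 1517 CPM in wild-type lesions. Of the 4 surface colonocyte markers, 3 lay below 0 (median −1.53), while their sum overlapped, at 71801 to 116111 CPM in sash and 72656 to 123766 CPM in wild-type lesions. The part of these cell types in the lower Bst2 was not tested. Gbp2, the only other guanylate-binding protein gene on the panel, ran opposite to Gbp2b, with 847 to 1539 CPM in sash lesions and 264 to 730 CPM in wild-type lesions. Reads of such close relatives can be shared, which was not tested, so the values of Gbp2b, and those of Ifitm3 as part of a family of similar genes, are uncertain to that degree.

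**Figure D1:**
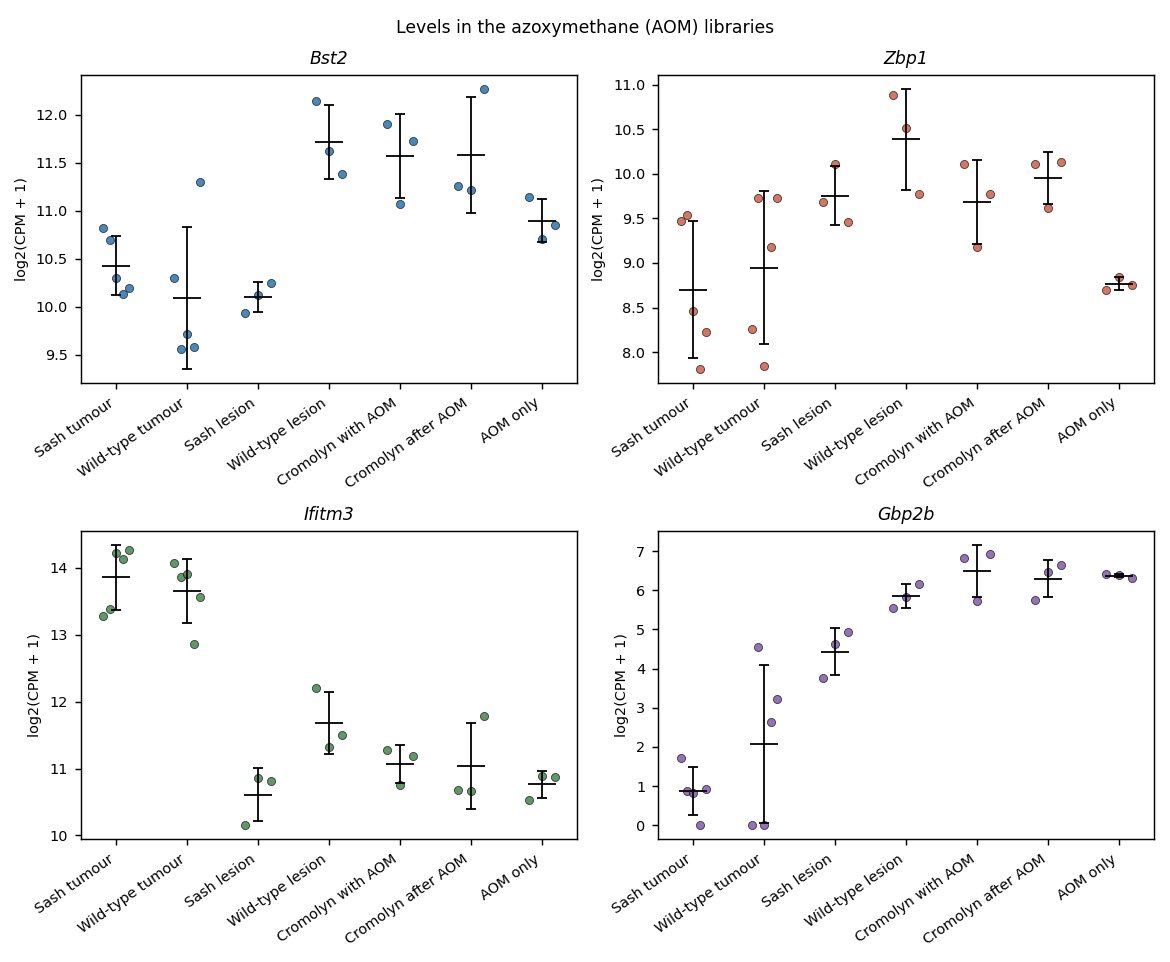
Levels of the 4 genes in the 25 AOM libraries as log2(CPM + 1), 1 panel per gene and 1 point per library, with bars for the mean ± SD of the log2 values. Bst2 lies lower in sash than in wild-type lesions without overlap, Ifitm3 lies highest in the tumours of both genotypes, Gbp2b reaches 0 counts in single tumours, and Zbp1 is tightly grouped in the AOM-only samples.

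The wider interferon response in the lesions was read from lists that were chosen, like the 4 genes, with earlier results of these data known. The balance of signs differed between the type I and the interferon-gamma list. Of the type I list, 14 of 45 names were on the panel, and all 14 lay below 0 in sash lesions, with a median log2 difference of −1.24, against 0.05 over all genes tested. Of the 14 tested interferon-gamma genes, 11 lay above 0, with a median of 0.34. The 4 defence genes had the sign of the first list. Oasl1, an antiviral synthetase-like gene, had 406 ± 60.0 CPM in sash and 1041 ± 303 CPM in wild-type lesions (SD, n = 3 each). Ido1, a tryptophan-degrading enzyme induced by interferon-gamma, had 78.7 ± 30.5 CPM in sash and 23.0 ± 9.21 CPM in wild-type lesions (SD, n = 3 each). Among the tested interferon-gamma genes Ido1 was the furthest from 0 (log2 difference 1.75, SE 0.45), and several others lay close to 0. The count of genes below 0 comes from a list and a comparison chosen with these results known, and no test of it is given. The interferon genes themselves were near the detection limit, with Ifng at 2.36 to 9.72 CPM in sash and 0 to 7.07 CPM in wild-type lesions, and Ifnb1 at 0 counts in sash and 1 count in wild-type lesions. Zbp1's necroptosis partners Ripk1 and Ripk3 lay within their error, with log2 differences of 0.10 (SE 0.17) and −0.12 (SE 0.25).

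The AOM-only samples had the same labelled treatment, age and genotype as the wild-type lesions, so the 4 genes were compared between these 2 sets. The sets are named separately, and differences in the tissue sampled or in handling cannot be told apart from variation between mice. All 4 genes differed without overlap, as did 40.6% of the 762 genes tested. The wild-type lesions belong to the comparison the genes were chosen on, and nothing is read from this count. Zbp1 was higher in wild-type lesions by 1.65 (SE 0.27), Ifitm3 by 0.92 (SE 0.25) and Bst2 by 0.80 (SE 0.23) on the log2 scale, and Gbp2b was lower (−0.55, SE 0.29). The type I list had a median of 1.48 in the same direction as Zbp1, with 13 of 14 genes above 0, against a median of 0.01 over all genes. The sets also differed in other markers, among them the B and plasma cell markers, which summed to 745 to 2467 CPM in wild-type lesions and 233 to 432 CPM in AOM-only samples. Epcam had 21429 to 25517 CPM in wild-type lesions and 16021 to 17397 CPM in AOM-only samples, and the 3 stroma markers summed to 1675 to 5936 CPM in wild-type lesions and 11054 to 12750 CPM in AOM-only samples. Their part in the differences was not tested. Scaled to Rpl13a, a ribosomal protein gene and the only housekeeping gene of the list on the panel, the differences were 1.07 for Zbp1, 0.37 for Ifitm3, 0.29 for Bst2 and −0.91 for Gbp2b, with the median of all genes at −0.43.

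Between stages the 4 genes differed in direction. In tumours of both genotypes Ifitm3 was higher than in lesions and Gbp2b was lower. Ifitm3 had 9900, 10692, 19157, 17976 and 19672 CPM in sash tumours 1 to 5, and 17133, 14893, 15331, 7410 and 12123 CPM in wild-type tumours 1 to 5. The lowest tumour thus lay above the highest lesion. The log2 difference, tumours minus lesions, was 3.27 (SE 0.37, a 9.62-fold difference) in sash and 1.94 (SE 0.34, 3.84-fold) in wild-type mice. Gbp2b was close to the detection limit in tumours, with 3, 1, 1, 0 and 1 counts in sash tumours 1 to 5 and 0, 16, 0, 5 and 7 counts in wild-type tumours 1 to 5. Its log2 differences of −4.34 (SE 1.00) in sash and −3.11 (SE 0.84) in wild-type mice are fitted values that depend on these few counts.

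Bst2 had 1806, 1662, 1262, 1123 and 1171 CPM in sash tumours 1 to 5, and 1262, 754, 842, 765 and 2527 CPM in wild-type tumours 1 to 5. Its difference between tumours and lesions was −1.52 (SE 0.34) in wild-type mice, where no tumour reached the lowest lesion, and 0.34 (SE 0.35) in sash mice, where the groups overlapped. Zbp1 had 711, 742, 351, 223 and 298 CPM in sash tumours 1 to 5, and 305, 850, 229, 579 and 847 CPM in wild-type tumours 1 to 5. Its stage difference was −0.92 (SE 0.45) in sash and −1.37 (SE 0.45) in wild-type mice, where the highest tumour lay just below the lowest lesion, while in sash mice the groups overlapped. Groups did not overlap for 2 of the 4 genes in sash mice, against 52.6% of the 848 genes tested, and for 4 of the 4 in wild-type mice, against 28.4% of them. These counts use the lesion samples on which the genes were chosen, and nothing is read from them.

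The stages differ in age, in the number of AOM injections and in the tissue sampled, which cannot be told apart here. The surface colonocyte markers summed to 15070 to 22947 CPM in sash and 19078 to 50158 CPM in wild-type tumours, against 71801 to 116111 CPM in sash and 72656 to 123766 CPM in wild-type lesions. The neutrophil markers summed to 1066 to 1479 CPM in sash and 250 to 891 CPM in wild-type tumours, against 129 to 215 CPM in sash and 147 to 220 CPM in wild-type lesions. The B and plasma cell markers summed to 19.1 to 46.5 CPM in sash and 26.2 to 682 CPM in wild-type tumours, against 82.5 to 265 CPM in sash and 745 to 2467 CPM in wild-type lesions. The part of these cell types in the levels of the 4 genes was not tested. Without wild-type tumours 2 and 4, the stage differences in wild-type mice were −1.19 for Bst2, −1.65 for Zbp1, 2.10 for Ifitm3 and −4.51 for Gbp2b. The type I list had 11 of 14 genes below 0 in sash tumours (median −0.71) and 13 of 14 in wild-type tumours (median −1.34), and the interferon-gamma list 14 of 15 in sash (median −1.61) and 12 of 15 in wild-type tumours (median −0.75). Ifitm3 was thus opposite in sign to most genes of both lists.

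The order of the group means shows how different the 4 profiles were. For Ifitm3 it ran upwards through sash lesions, AOM only, cromolyn with AOM, cromolyn after AOM and wild-type lesions to wild-type and then sash tumours, and the only neighbours without overlap were wild-type lesions and wild-type tumours. For Gbp2b it ran through sash tumours, wild-type tumours, sash lesions, wild-type lesions, cromolyn after AOM and AOM only to cromolyn with AOM, with a gap between sash and wild-type lesions alone. Bst2 was lowest in sash lesions, followed by wild-type tumours, sash tumours, AOM only, cromolyn with AOM, cromolyn after AOM and wild-type lesions. Zbp1 was lowest for AOM only, followed by sash tumours, wild-type tumours, cromolyn with AOM, sash lesions, cromolyn after AOM and wild-type lesions. In the last 2 orders every group overlapped with the next.

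**Figure D2:**
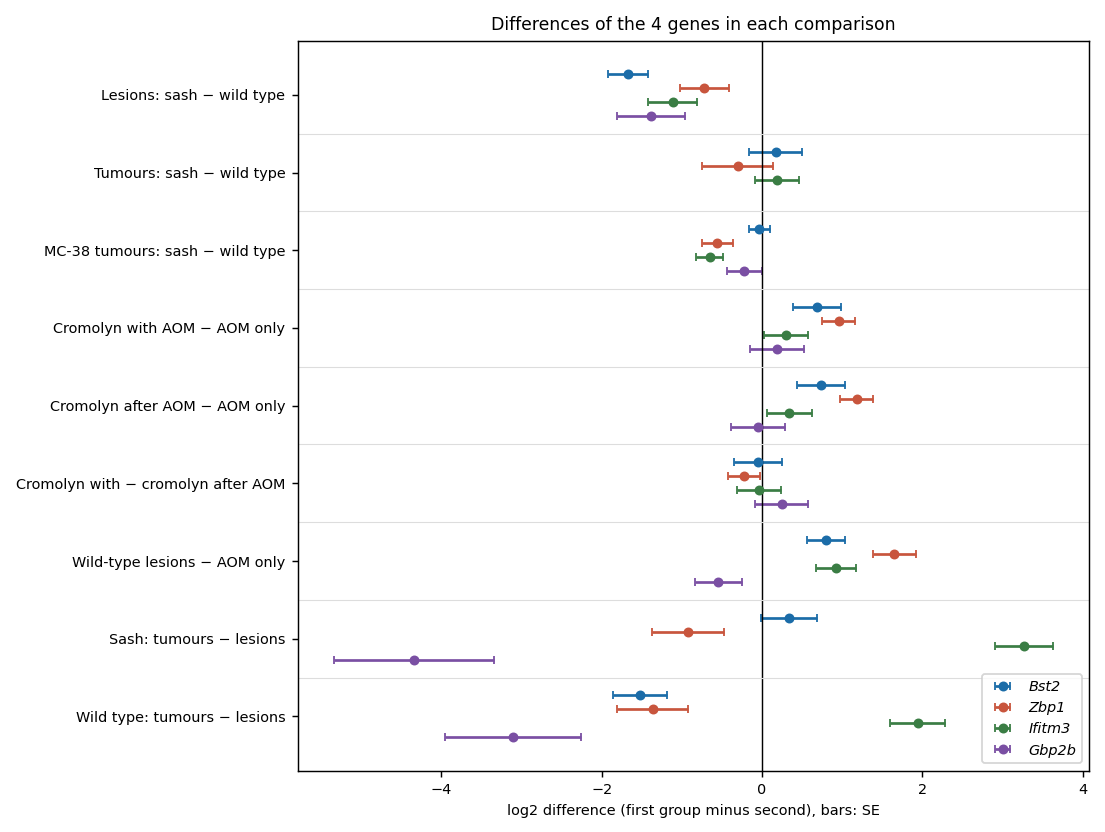
Log2 difference of each gene (first group named minus second) in the 9 comparisons, with bars for the SE. In the lesions all 4 genes lie below 0, in the tumour-to-lesion comparisons Ifitm3 lies far above and Gbp2b far below 0, and with cromolyn against AOM only Zbp1 is furthest above 0. Gbp2b has no value in the tumours of sash against wild-type mice because it did not pass the filter on low counts.

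Zbp1 was the only gene of the 4 that passed with cromolyn, and it did so for cromolyn after AOM alone. It had 1105, 578 and 874 CPM in replicates 1 to 3 of cromolyn with AOM, 1102, 783 and 1123 CPM in those of cromolyn after AOM, and 414, 459 and 432 CPM for AOM only. Every cromolyn sample lay above every AOM-only sample, and the AOM-only samples were close together (SD 22.8 CPM, against 264 CPM for cromolyn with AOM and 191 CPM for cromolyn after AOM). For cromolyn after AOM, Zbp1 rose by 1.18 on the log2 scale (SE 0.21, 2.26-fold, edgeR adjusted p = 0.0257, higher in 3 of 3 samples). For cromolyn with AOM, the difference was 0.95 (SE 0.21, adjusted p = 0.0651, higher in 3 of 3). Both comparisons share the AOM-only samples. Wild-type lesions, labelled with the same treatment as AOM only and no cromolyn, had 1892, 1462 and 872 CPM of Zbp1. They stood above AOM only by 1.65 (SE 0.27) on the log2 scale, more than either cromolyn group. How far the rise reflects a low level in this AOM-only set was not tested. The direct comparison of cromolyn with AOM and cromolyn after AOM gave −0.23 (SE 0.20, adjusted p = 0.766).

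The call of Zbp1 for cromolyn after AOM ended when any of 5 libraries was left out. The adjusted p was 0.0788, 0.114 and 0.0552 without AOM-only replicate 1, 2 or 3, and 0.0590 and 0.0563 without replicate 1 or 3 of cromolyn after AOM. It was 0.407 in a fit of all 25 AOM libraries, where the difference was 1.19 (SE 0.45). Over all 16 alternatives the log2 difference lay between 1.11 and 1.34 and the adjusted p between 0.000150 and 0.407. For cromolyn with AOM the call appeared under DESeq2 (adjusted p = 0.00389), with library totals (0.0273), without replicate 2 of cromolyn with AOM (0.00882) and without replicate 3 of cromolyn after AOM (0.0366).

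Bst2 had a higher mean with cromolyn, but its samples varied. It stood at 3842, 2154 and 3381 CPM in the samples given cromolyn with AOM, 2442, 2377 and 4953 CPM for cromolyn after AOM, and 2264, 1664 and 1844 CPM for AOM only. The difference was 0.68 (SE 0.30, adjusted p = 0.299) for cromolyn with AOM and 0.73 (SE 0.30, adjusted p = 0.191) for cromolyn after AOM, where all 3 samples lay above every AOM-only sample. Ifitm3 had 2469, 1719 and 2325 CPM in the samples given cromolyn with AOM, 1633, 1615 and 3513 CPM for cromolyn after AOM, and 1474, 1894 and 1878 CPM for AOM only. Its groups overlapped, with differences of 0.30 (SE 0.28, adjusted p = 0.580) for cromolyn with AOM and 0.34 (SE 0.28, adjusted p = 0.504) for cromolyn after AOM. The last of these was −0.09 without replicate 3 of cromolyn after AOM, which held the highest value.

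Gbp2b had 112, 51.7 and 121 CPM in the samples given cromolyn with AOM, 52.9, 87.6 and 99.0 CPM for cromolyn after AOM, and 84.1, 82.8 and 79.1 CPM for AOM only. Cromolyn samples lay on both sides of the tightly grouped AOM-only samples. The difference of 0.19 for cromolyn with AOM (SE 0.34, adjusted p = 0.789) was −0.06 when scaled to Rpl13a, and that of −0.06 for cromolyn after AOM (SE 0.34, adjusted p = 0.940) was 0.11 on that scale and 0.06 with library totals. Between the 2 times of cromolyn no gene of the 4 passed, with log2 differences (with minus after) of −0.05 for Bst2 (SE 0.30, adjusted p = 0.995), −0.04 for Ifitm3 (SE 0.28, adjusted p = 0.995) and 0.24 for Gbp2b (SE 0.34, adjusted p = 0.897).

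Against these counts stand the shares of all 768 genes tested. For cromolyn with AOM, 0 of 4 genes passed, against 0.260% of all genes, and the groups of 1 of 4 did not overlap, against 24.5%. For cromolyn after AOM, 1 of 4 passed, against 4.82%, and the groups of 2 of 4 did not overlap, against 29.3%. The 4.82% stood for 37 genes, which became 1 to 2 when 1 AOM-only library was left out, 2 to 8 when 1 library of cromolyn after AOM was left out and 32 to 41 when 1 of cromolyn with AOM was left out. For cromolyn with AOM against cromolyn after AOM, 0 of 4 passed, against 0% of all genes, of which 64 had an unadjusted p below 0.05 and 3 were called by DESeq2.

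Few of the other interferon genes passed with cromolyn. All 14 genes of the type I list lay above 0 for cromolyn with AOM (median 0.35, against −0.03 over all genes) and 12 of 14 for cromolyn after AOM (median 0.43, against 0.01), and 0 passed in either. Oas2, a sensor of double-stranded RNA, had 277 ± 303 CPM for cromolyn after AOM and 55.8 ± 21.1 CPM for AOM only (SD, n = 3 each, 2.29, SE 0.82, edgeR adjusted p = 0.155). Of the 14 tested interferon-gamma genes, 12 lay above 0 for cromolyn with AOM (median 0.35) and 9 for cromolyn after AOM (median 0.07). For cromolyn with AOM, 1 of them passed. This was Psmb9, an immunoproteasome subunit, at 2890 ± 409 CPM, against 1398 ± 222 CPM for AOM only (1.03, SE 0.16, edgeR adjusted p = 0.0219). Its call ended without AOM-only replicate 2 (adjusted p = 0.178) or 3 (0.0973) or replicate 1 of cromolyn with AOM (0.118), with scaling to Rpl13a (0.102) and in the fit of all AOM libraries (0.791), and the adjusted p over 16 alternatives lay between 8.87e-06 and 0.791. For cromolyn after AOM, Socs1, an inhibitor of interferon signalling, rose by 1.53 on the log2 scale (SE 0.37, edgeR adjusted p = 0.0411, higher in 3 of 3 samples), and Casp1, an inflammasome protease, fell to 2800 ± 109 CPM, against 3989 ± 255 CPM (−0.53, SE 0.11, edgeR adjusted p = 0.0333). Both calls ended when any 1 of the 6 libraries compared was left out, with scaling to Rpl13a and in the fit of all AOM libraries, that of Socs1 also with the replicate block and that of Casp1 also with library totals. Over 16 alternatives the adjusted p lay between 0.00549 and 0.306 for Socs1 and between 0.000309 and 0.611 for Casp1. Ripk3, the kinase through which Zbp1 can act, had differences of 0.29 (SE 0.15, adjusted p = 0.354) and 0.33 (SE 0.15, adjusted p = 0.223) for cromolyn with and after AOM, and 0 of the 3 necroptosis genes passed.

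The B and plasma cell markers summed to 498 to 2159 CPM for cromolyn with AOM and 381 to 1927 CPM for cromolyn after AOM, against 233 to 432 CPM for AOM only, and 7 of the 8 were tested, of which 0 passed. The T cell markers summed to 890 to 1498 CPM for cromolyn with AOM and 762 to 1314 CPM for cromolyn after AOM, against 679 to 900 CPM for AOM only. The cytotoxic and NK cell markers summed to 658 to 794 CPM for cromolyn with AOM and 326 to 583 CPM for cromolyn after AOM, against 316 to 435 CPM for AOM only. The plasmacytoid dendritic cell markers summed to 714 to 911 CPM for cromolyn with AOM and 650 to 895 CPM for cromolyn after AOM, against 519 to 696 CPM for AOM only. The 3 stroma markers had lower sums with cromolyn, at 6785 to 10822 CPM for cromolyn with AOM and 7162 to 8309 CPM for cromolyn after AOM, against 11054 to 12750 CPM for AOM only. The surface colonocyte markers summed to 49487 to 71500 CPM for cromolyn with AOM, below every AOM-only sample, and to 66480 to 88556 CPM for cromolyn after AOM, against 76560 to 97070 CPM for AOM only. The part of these cell types in the levels of Zbp1 was not tested.

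**Figure D3:**
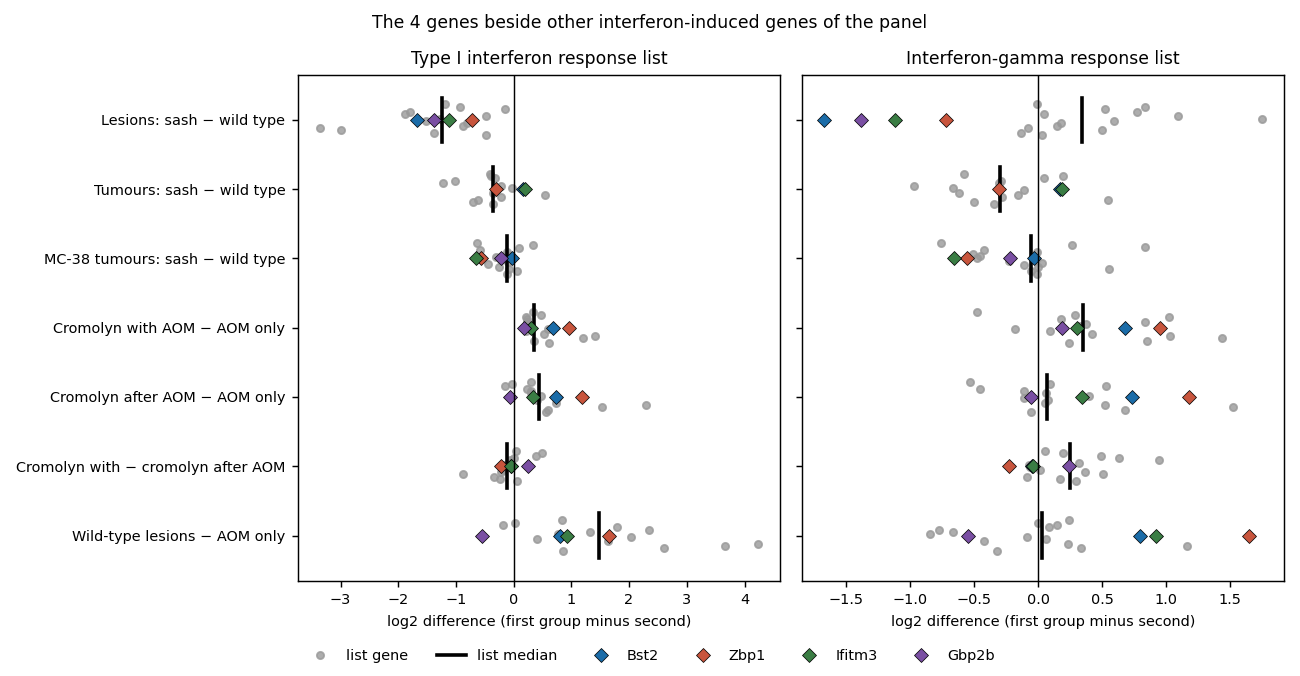
Log2 differences of the 4 genes (diamonds) beside the tested genes of the type I interferon list (left) and the interferon-gamma list (right) in 7 comparisons, with a black line for the list's median. In the lesions the 4 genes lie with the type I list, whose median is −1.24, and away from the interferon-gamma list, whose median is 0.34. With cromolyn against AOM only, Bst2 and Zbp1 lie above both medians.

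In AOM tumours sash and wild-type values overlapped for all 3 genes that passed the filter on low counts, and 0 of them passed the test. Bst2 averaged 1405 ± 309 CPM in sash and 1230 ± 755 CPM in wild-type tumours (SD, n = 5 each, log2 difference 0.17, SE 0.33, edgeR adjusted p = 0.803). Ifitm3 averaged 15479 ± 4780 CPM in sash and 13378 ± 3788 CPM in wild-type tumours (0.19, SE 0.27, edgeR adjusted p = 0.742). Zbp1 averaged 465 ± 243 CPM in sash and 562 ± 292 CPM in wild-type tumours (−0.31, SE 0.45, edgeR adjusted p = 0.745). Without wild-type tumours 2 and 4, the differences were −0.14 for Bst2, 0.07 for Ifitm3 and 0.01 for Zbp1. Without wild-type tumour 5, which held the highest Bst2, that of Bst2 was 0.60 (SE 0.21, edgeR adjusted p = 0.142), and with any other single library left out it lay between 0.03 and 0.24. In the tumours 0 of 3 genes passed, against 0% of the 797 genes tested (159 had an unadjusted p below 0.05, and DESeq2 called 81), and 0 of 3 had groups without overlap, against 5.40%.

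Gbp2b was too low for that test. Pooled over the 5 tumours of a genotype, it reached 6 counts (sash) and 28 counts (wild type), a ratio of 0.167 relative to the total counts (exact 95% interval 0.0567 to 0.412, counting error only). Of the 28 counts, wild-type tumour 2 held 16, and without it the ratio was 0.337 (0.104 to 0.971). Sash tumour 1 gave 3 of the 6 counts, and leaving it out gave 0.107 (0.0208 to 0.347). The groups overlapped, since wild-type tumours 1 and 3 and sash tumour 4 each had 0 counts, and such a ratio compares these libraries and not the genotypes.

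The type I list had 12 of 14 genes below 0 in sash tumours (median −0.35, against −0.04 over all genes) and 0 passed. Its gene of smallest p was Irf7, a transcription factor of the interferon response, at 532 ± 247 CPM in sash and 1225 ± 697 CPM in wild-type tumours (−1.23, SE 0.45, edgeR adjusted p = 0.173). Of the interferon-gamma list, 11 of 14 lay below 0 (median −0.30) and 0 passed. Whether the effect of genotype on the 4 genes differed between lesions and tumours was not tested.

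MC-38 tumours ask whether the host's genotype acts on a transplanted tumour of 1 cell line. Here Ifitm3 and Zbp1 had the lower mean in sash hosts, while Bst2 was nearly level. Ifitm3 had 2264, 2717, 2795, 2833 and 2003 CPM in sash hosts 1, 2, 4, 5 and 6, against 3643, 4834, 4244 and 2962 CPM in wild-type hosts 1, 3, 4 and 5. All 5 sash tumours lay below every wild-type tumour, with a log2 difference of −0.66 (SE 0.17), but it did not pass (edgeR adjusted p = 0.0805). The adjusted p was 0.0129 under DESeq2 and 0.0427 without wild-type host 5, and it reached 0.323 with the replicate number as a block.

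Zbp1 had 681, 511, 932, 587 and 662 CPM in sash hosts, against 1023, 1191, 969 and 737 CPM in wild-type hosts. Of the sash tumours 4 of 5 lay below every wild-type tumour (−0.56, SE 0.19, adjusted p = 0.147). Gbp2b had 343, 229, 299, 304 and 275 CPM in sash hosts, against 357, 192, 481 and 308 CPM in wild-type hosts. Wild-type hosts 3 and 4 held both its lowest and its highest value, and the difference was −0.22 (SE 0.22, adjusted p = 0.589). Bst2 had 13920, 15280, 13518, 15203 and 18622 CPM in sash hosts, against 16238, 13914, 16901 and 15239 CPM in wild-type hosts. Its groups overlapped almost fully (−0.04, SE 0.13, adjusted p = 0.904, and 0.01 with library totals). In the MC-38 tumours 0 of 4 genes passed, against 1.26% of the 714 genes tested (edgeR, with 156 at an unadjusted p below 0.05 and 48 called by DESeq2), and the groups of 1 of 4 did not overlap, against 8.68%.

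**Figure D4:**
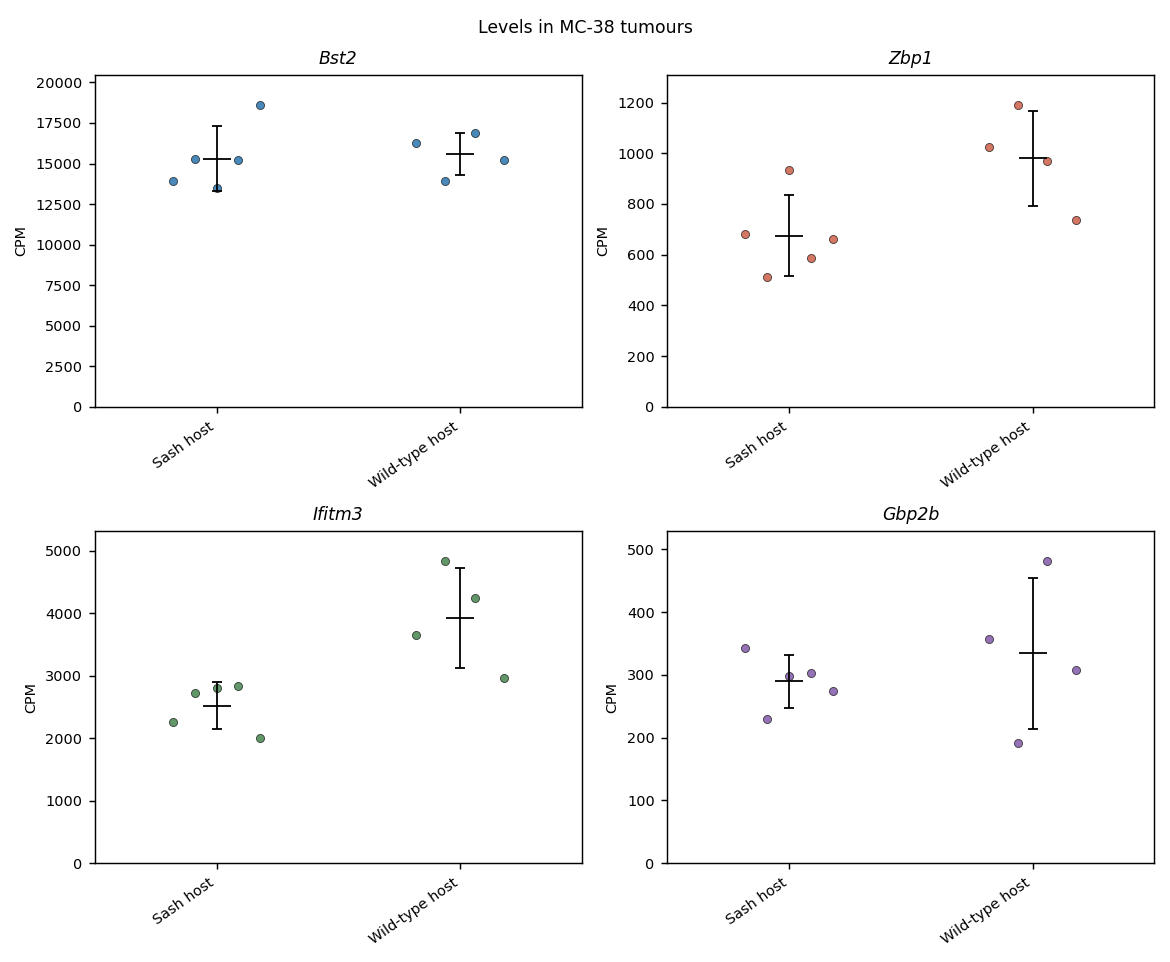
Levels of the 4 genes in CPM in MC-38 tumours of 5 sash and 4 wild-type hosts, 1 point per library, with bars for the mean ± SD. For Ifitm3 the sash tumours (2003 to 2833 CPM) lie below all wild-type tumours (2962 to 4834 CPM), whereas the ranges of the other genes overlap.

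Of the other interferon genes 1 passed in the MC-38 tumours. Of the type I list 11 of 14 lay below 0 (median −0.12, against −0.01 over all genes) and 0 passed. The RNA sensor gene Ddx58 had 342 ± 78.9 CPM in sash (n = 5) and 526 ± 111 CPM in wild-type hosts (n = 4, −0.64, SE 0.20, edgeR adjusted p = 0.127). Ifit3, of the same list, had a difference of −0.59 (SE 0.21, adjusted p = 0.147). Of the 15 tested interferon-gamma genes 4 lay above and 11 below 0 (median −0.06), and the gene that passed was Ciita, which switches on MHC class II genes, at 222 ± 43.6 CPM in sash and 123 ± 17.3 CPM in wild-type hosts (0.84, SE 0.17, edgeR adjusted p = 0.0422). Its call remained without sash host 4 or 6 and ended when any 1 of the other 7 libraries was left out (adjusted p up to 0.120), with the replicate block (0.115) and with scaling to Rpl13a (0.144). Ifng itself averaged 183 ± 28.0 CPM in sash and 166 ± 53.8 CPM in wild-type hosts (0.12, SE 0.21, edgeR adjusted p = 0.759). Gbp2 stood at 4496 to 7169 CPM in sash and 7679 to 9331 CPM in wild-type hosts. The macrophage and monocyte markers summed to 3485 to 4563 CPM in sash and 3423 to 4368 CPM in wild-type hosts, and the plasmacytoid dendritic cell markers to 258 to 362 CPM in sash and 311 to 407 CPM in wild-type hosts, both with overlap. The mast cell markers summed to 573 to 1055 CPM in sash and 1349 to 2002 CPM in wild-type hosts. Among these markers Cpa3 gave 3.23 to 6.64 CPM in sash hosts, so most of the sum there came from other genes of the list.

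The 4 genes did not vary as a block from library to library. Over the 25 AOM libraries, after each group's mean was taken off, the correlation of log2(CPM + 1) was 0.70 between Zbp1 and Gbp2b and 0.48 between Bst2 and Zbp1, but only −0.13 between Ifitm3 and Gbp2b and −0.23 between Zbp1 and Ifitm3. In the 9 MC-38 libraries the first 2 were −0.05 and −0.36. These values describe libraries that share depth and composition, and no p is given. In the AOM libraries, those with Gbp2b rest largely on the 5 wild-type tumours, where it had 0, 16, 0, 5 and 7 counts.

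Among the 806 genes with a mean of at least 10 counts, Bst2 was most like Ifit3 (Pearson r = 0.83, Spearman rho = 0.75), Ddx58 (0.80 and 0.82) and B2m (0.77 and 0.69). Zbp1 was most like Sp100 (0.87 and 0.89), Apol7a (0.83 and 0.83) and Psmb9 (0.83 and 0.79). Ifitm3 stood with Ptafr (0.81 and 0.76), Il2rg (0.76 and 0.73) and Icam1 (0.76 and 0.78), and Gbp2b with H2-K1 (0.86 and 0.84) and Gbp2 (0.75 and 0.55). The Pearson values of Gbp2b again rest largely on its few counts in the wild-type tumours. None of the genes named here was among the most alike of more than 1 of the 4. Without the 2 libraries farthest from the median of the member, r lay between 0.61 (Bst2 and B2m) and 0.84 (Zbp1 and Sp100). In the 9 MC-38 libraries r was 0.66 for Zbp1 and Apol7a, 0.62 for Gbp2b and Gbp2 and 0.00 for Bst2 and Ifit3, and it ranged down to −0.35 for Bst2 and Ddx58.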

How the data were processed

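Whole-number counts per gene were used as the authors deposited them, with no normalization, in 1 table of 25 AOM libraries and 1 of 9 MC-38 libraries. Per the labels' protocols, libraries were made with the QIAseq Targeted RNA Mouse Immuno-Oncology panel and read on a MiSeq. The submitters' processing notes name mm9 and DESeq2. No aligner, counter or molecular tag is given in the sources used here. Counting intervals cover counting error only. The panel's 5 control entries, at 0 throughout, were left out. Of 36 labelled samples, 34 were analysed, and wild-type host 2 and sash host 3 of MC-38 were not analysed here.

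The main test was edgeR's quasi-likelihood F test (edgeR 4.0.16, limma 3.58.1, R 4.3.3), with TMM scaling, filterByExpr (minimum count 10, minimum total 15), robust dispersions and Benjamini-Hochberg adjustment over all genes of a comparison. The threshold was an adjusted p of 0.05, and an adjusted p with no tool beside it comes from edgeR. Sash and wild type were fitted pair by pair, the cromolyn comparisons in a fit of 3 groups, and the stages in a fit of 4. CPM were scaled by TMM over the whole of each table. The script was tested on simulated data. Alternatives were DESeq2 1.42.0, RLE size factors, library totals, scaling to Rpl13a, no filter, all AOM libraries in 1 fit, the replicate number as a block and each library left out. Replicates of a group differed by at least 5.85 in chi-square per degree of freedom, so no library was taken for a copy of another.

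The members and the lists were chosen with earlier results of these data known. Further genes named are, for each comparison, those of smallest p in the interferon, nucleic acid sensing and necroptosis lists (up to 4 that passed, otherwise 2), the 3 most like each member, and cell type markers beside a result. A gene that this rule names is not reported here. Coordinates are those of RefSeq's GRCm38.p6 windows and were not joined to the mm9 counts. Lesion samples of the same number deviated together (correlations 0.38, 0.15 and 0.51), a hint from the data since the labels give no origin for the numbers. The block left the sign of all 4 lesion differences as it was.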

Additional observations from a re-analysis of the deposited data

Results flagged for a closer look

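Bst2 in wild-type tumour 5 stood at 2527 CPM, and the nearest of the other 4 wild-type tumours was at 1262 CPM. It was noted because this gap is large for the range of a group of 5. Of 16 sets of 1 gene in 1 group that were examined in this way, 1 was noted, and chance alone marks about 1 in 20 such groups.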

How the results depend on the processing

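Over the single-gene alternatives, 552 were the same as the main fit. In the tested comparisons this means the same direction and side of the threshold. In those given as a description it means the same direction and a shift within the SD of the groups. A further 4 of the latter shifted by more, while in the tested comparisons 6 gained and 6 lost a call. The other 18 changed sign, all of them in values that had not passed. Bst2 and Zbp1 in the tumours were −0.14 and 0.013 without wild-type tumours 2 and 4, a setting chosen after seeing the data. Scaling to Rpl13a turned Gbp2b to −0.065 for cromolyn with AOM, to 0.11 for cromolyn after AOM and to −0.17 between the 2 times, and shifted the median of all genes to −0.30, 0.15 and −0.41. Library totals turned Gbp2b for cromolyn after AOM to 0.059 and Bst2 in MC-38 tumours to 0.0087, and the replicate block turned Ifitm3 between the times of cromolyn to 0.027. With 1 library left out, Gbp2b and Ifitm3 for cromolyn after AOM ranged from −0.21 to 0.16 and from −0.095 to 0.54, Bst2 and Ifitm3 between the times from −0.23 to 0.37 and from −0.23 to 0.42, and Bst2 and Gbp2b in MC-38 tumours from −0.10 to 0.023 and from −0.40 to 0.0086.

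The count of the 4 genes that passed for cromolyn with AOM was 1 under DESeq2 and with library totals, and 0 to 1 with 1 library left out. For cromolyn after AOM it was 0 in the fit of all AOM libraries and 0 to 1 with 1 library left out. In MC-38 tumours it was 1 under DESeq2 and 0 to 1 with 1 library left out, and 1 type I gene passed there under DESeq2. Causes were not tested.

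Over all genes, edgeR and DESeq2 called 0 and 81 in the tumours, 2 and 42 for cromolyn with AOM, 37 and 56 for cromolyn after AOM, 0 and 3 between the times, and 9 and 48 in MC-38 tumours. With 1 library left out, edgeR called 0 to 17 in the tumours, 0 to 18 for cromolyn with AOM, 1 to 41 for cromolyn after AOM, 0 to 3 between the times and 3 to 17 in MC-38 tumours. The fit of all AOM libraries called 88 in the tumours and 0 in each cromolyn comparison, library totals 2, 18, 28 and 3 in the tumours, with cromolyn, after cromolyn and between the times and scaling to Rpl13a 1, 10, 4 and 3 for cromolyn with AOM, after AOM, between the times and in MC-38 tumours. With Rpl13a scaling the 10 calls for cromolyn after AOM were all higher, against 18 higher and 19 lower, and with library totals 20 were higher and 8 lower. For cromolyn with AOM, 17 of the 18 calls with library totals and 31 of the 42 by DESeq2 were higher. In MC-38 tumours 5 were higher and 4 lower with edgeR, 6 and 3 with library totals and 0 and 3 with Rpl13a scaling. The replicate block gave 7 calls for cromolyn with AOM, 21 for cromolyn after AOM and 3 in MC-38 tumours. In the lesions it left the differences at −1.63 for Bst2, −0.66 for Zbp1, −1.08 for Ifitm3 and −1.42 for Gbp2b. Outside the lesions, same-numbered samples did not all deviate together, with correlations from −0.35 to 0.63, and the block ended no call of the 4 genes. Depth limits Gbp2b above all, with at most 16 counts in a tumour.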
